A study of Mus musculus with 1479 samples.

Results

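The TGF-beta ligands, receptors and latent binders are 10 genes that were found in the count table by symbol. They comprise the ligands Tgfb1, Tgfb2 and Tgfb3, the receptors Tgfbr1, Tgfbr2 and Tgfbr3, and the latent binders Ltbp1, Ltbp2, Ltbp3 and Ltbp4, and they make up 10 of 46517 gene rows. All 10 had reads and all 10 passed the filter on low counts in the 3 comparisons below. The table held raw read counts of 1479 single cells, each a Smart-seq2 library of its own. They were taken from the bladders of male mice at 10 to 20 weeks of age. The labels placed each cell in 1 of 11 clusters and 1 of 5 mouse lines. C57BL6 mice (12.8% of cells) carried no reporter. In Acta2GFP (8.72%), Cspg4dsRED (13.7%) and PdgfrbGFP (54.8%) a transgene makes GFP or dsRED in cells that use the Acta2, Cspg4 or Pdgfrb promoter. In PdgfraGFP (9.94%) a nuclear GFP sits in the Pdgfra gene itself. All lines were kept on the C57Bl6/J background, and sorted cells were positive for a reporter or for an antibody to PDGFRα or PDGFRβ and negative for the endothelial antigen CD31. Elastase was added when Acta2GFP tissue was dissociated. The study took cluster 10 as mural cells, a mixture of pericytes and smooth muscle cells around vessels, cluster 5 as fibroblasts beneath the epithelium, and the rest as fibroblasts, with cluster 4 undefined.

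TGF-beta is made as a precursor that is cut by a furin-type protease, while its cut-off propeptide stays wrapped around the ligand and keeps it from its receptors. Latent TGF-beta binding proteins attach covalently to that propeptide inside the cell and anchor the complex to fibrillin and fibronectin fibres outside it. The members are not all alike in this binding, which was not measured here. LTBP2 is not known to bind the propeptide and is known as a component of elastic microfibrils. Release by integrins, proteases or thrombospondin lets the ligand bind TGFBR2, which recruits and phosphorylates TGFBR1, the kinase that activates SMAD2 and SMAD3. TGFBR3, or betaglycan, is a co-receptor that presents ligand, above all TGF-beta 2. In bladder and vessel walls the pathway is known for matrix production and for contractile gene expression.

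Promoter sequences of the 4 genes that passed the test in cluster 10 (Ltbp1, Ltbp4, Ltbp2 and Tgfbr2) are shown as the sequence context of the results below. Each holds the 250 bases before the first transcript start that RefSeq gives on GRCm38.p6, 5′ to 3′ on the strand of the gene. Capitals mark matches on either strand to the SMAD box (CAGAC or GTCTG), the CRE (TGACGTCA), the AP-1 site (TGAGTCA or TGACTCA), the TATA box (TATAAA or TTTATA) and the GC box (GGGCGG or CCGCCC).
Ltbp1, chr17:75005279-75005528, plus strand: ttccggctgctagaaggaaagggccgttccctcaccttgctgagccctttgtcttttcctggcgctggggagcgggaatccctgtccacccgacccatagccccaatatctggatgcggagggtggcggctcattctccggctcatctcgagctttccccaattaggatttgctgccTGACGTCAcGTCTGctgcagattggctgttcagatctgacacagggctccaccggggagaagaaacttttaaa
Ltbp4, chr7:27337613-27337862, minus strand: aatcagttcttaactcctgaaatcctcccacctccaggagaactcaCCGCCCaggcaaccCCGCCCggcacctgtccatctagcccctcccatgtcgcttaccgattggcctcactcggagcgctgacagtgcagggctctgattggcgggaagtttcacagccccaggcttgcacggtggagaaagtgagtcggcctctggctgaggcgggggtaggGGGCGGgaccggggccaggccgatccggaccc
Ltbp2, chr12:84876492-84876741, minus strand: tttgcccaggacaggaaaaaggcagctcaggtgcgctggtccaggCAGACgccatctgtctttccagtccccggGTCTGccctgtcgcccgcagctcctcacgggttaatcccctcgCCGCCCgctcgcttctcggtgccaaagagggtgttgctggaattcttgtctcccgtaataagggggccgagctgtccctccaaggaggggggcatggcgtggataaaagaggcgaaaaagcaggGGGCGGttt
Tgfbr2, chr9:116175364-116175613, minus strand: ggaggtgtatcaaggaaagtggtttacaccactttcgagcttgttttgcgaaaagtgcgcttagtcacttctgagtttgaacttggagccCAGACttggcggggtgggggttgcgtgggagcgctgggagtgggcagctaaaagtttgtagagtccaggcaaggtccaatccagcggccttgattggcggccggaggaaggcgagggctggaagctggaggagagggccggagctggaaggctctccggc
Among 32851 promoters of this length, 1.55% held a CRE, 42.2% a SMAD box, 32.7% a GC box, 12.4% a TATA box and 4.46% an AP-1 site. The Ltbp1 sequence held 1 CRE and 1 SMAD box, the Ltbp4 sequence 3 GC boxes, the Ltbp2 sequence 2 SMAD boxes and 2 GC boxes, and the Tgfbr2 sequence 1 SMAD box. No matches overlapped in the sequences shown. These letters are a description of the windows and not of factor binding, which was not measured. RefSeq windows were matched for 8 of the 10 genes, in 12 entries, and no entry was found for Tgfb3 and Tgfbr3.

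Endogenous reads per cell ran from 48455 to 1433402 with a median of 212483, and median depth per line ran from 117026 in PdgfraGFP to 292807 in C57BL6. The cluster names were set beside marker lists. Many of these markers were reported by the study from these same cells, so the sums describe the clusters and are no independent check. The summed level of 10 mural markers ran from 8300 to 12859 reads per 500000 in the lines of cluster 10 and from 64.5 to 169.6 in the fibroblast clusters other than 5. The summed level of 10 fibroblast markers ran from 563 to 2245 in cluster 10 and from 15669 to 22157 in those fibroblast clusters, with none of the 10 at 0 in cluster 10. For cluster 5, 7 sub-epithelial markers summed to between 1120 and 3358 per line, against 45.9 to 144.9 in the other fibroblast clusters. Summed immune markers stayed at or below 34.5 and summed endothelial markers at or below 59.1 in any line of these 3 classes. Cells with clear signatures of those kinds had already been removed by the authors.

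The 10 genes differed widely in level. A level is the number of reads among 500000 endogenous reads, as a mean over cells within each line and over lines after that. Levels were divided by the kilobases of exon wherever genes are compared with each other. Ltbp4 stood highest, at 149.8 to 222.9 per kilobase in the fibroblast clusters other than 5, and Tgfbr2 followed at 18.2 to 104.3. Tgfb3 had 24.3 to 32.7 per kilobase in every cluster except 4 and 5, where it had 7.34 and 7.76. Tgfb1 was the lowest, with no cluster above 0.251 per kilobase. It had 560 reads in 86 of the 1479 cells, against 763187 reads in 1456 cells for Ltbp4. A single cell of cluster 7 from PdgfrbGFP held 19.1% of the Tgfb1 reads, and 6 cells held 50% of its scaled reads. Reads of Ltbp2 and Tgfbr1 were also concentrated, with 54 cells each holding 50% of the scaled reads, while 405 cells were needed for Ltbp4.

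**Figure D1:**
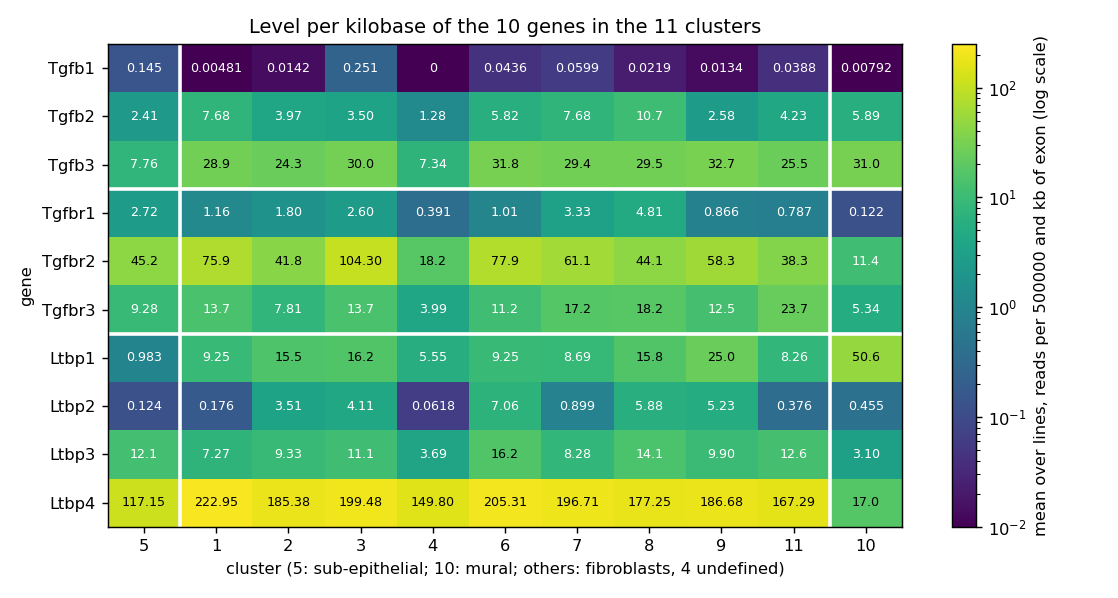
Mean level per kilobase of exon (reads per 500000 endogenous reads, mean over lines, log colour scale) of the 10 genes (rows) in the 11 clusters (columns), with cluster 5 at the left and cluster 10 at the right. Ltbp4 has 149.8 to 222.9 in the fibroblast clusters other than 5 and 17 in cluster 10, where Ltbp1 has 50.6.

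The first comparison asked how mural cells differ from fibroblasts in these genes. In cluster 10 Ltbp1 rose 4.48-fold, and Ltbp4 fell by 3.61, Ltbp2 by 5.60 and the receptor Tgfbr2 by 2.54 on the log2 scale, while Tgfb2 and Tgfb3 differed by less than the spread between lines. Counts were summed per line in the 4 lines with at least 3 cells of both kinds (12 cells of cluster 10 in Acta2GFP, 3 in C57BL6, 65 in Cspg4dsRED and 45 in PdgfrbGFP, and 1207 fibroblasts in all). The test was edgeR's quasi-likelihood test, blocked by line and adjusted over 16092 genes. At an adjusted p under 0.05, 1 of the 10 members was higher and 3 were lower, where 2.27% of all tested genes were higher and 4.11% lower. The median log2 fold change was -2.45 over the 10 members and -0.93 over all tested genes. Relative to that shift of all genes, Ltbp1 was 3.09 higher, and Ltbp4 was at -2.67, Tgfbr2 at -1.61 and Ltbp2 at -4.67. Of all called genes 35.6% were higher in cluster 10, and 70.5% were with the median gene set to 0. On that scale only Ltbp1 and Ltbp4 passed, with Tgfbr2 at an adjusted p of 0.0620 and Ltbp2 at 0.0953. The clusters were made from the same counts, so the test states how far a difference repeated over lines.

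Ltbp1, a latent binder that anchors the complex to fibrillin and fibronectin, had 592 reads per 500000 in cluster 10 of Acta2GFP, 469.9 in C57BL6, 325.1 in Cspg4dsRED and 775.0 in PdgfrbGFP. The fibroblasts of the same lines had 116.6, 118.3, 58.8 and 123.6. The lowest mural value lay above the highest fibroblast value, and Ltbp1 was higher in cluster 10 in 7 of 7 groups of cells from 1 plate and line. The log2 fold change was 2.16 ± 0.44 (SE) at an adjusted p of 0.00412. It was 2.06 without PdgfrbGFP, where the adjusted p was 0.0529. Ltbp4, the latent binder that is known for its part in elastic fibre assembly, moved the other way. Its levels were 56.2, 162.4, 84.4 and 137.8 in cluster 10 of Acta2GFP, C57BL6, Cspg4dsRED and PdgfrbGFP, against 1220, 1246, 997.9 and 981.5 in the fibroblasts. The lines did not overlap, and the log2 fold change of -3.61 ± 0.41 had an adjusted p of 7.05e-06, the smallest among the members.

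Ltbp2, the microfibril protein of the family, had 0.138 reads per 500000 in cluster 10 of Acta2GFP, 0.873 in C57BL6, 0.388 in Cspg4dsRED and 13.5 in PdgfrbGFP. The fibroblasts had 29.5, 37.8, 51.6 and 40.1. PdgfrbGFP stood apart, since the mural cells of the other 3 lines held 1, 1 and 5 reads, and it still lay below all fibroblast values. The log2 fold change was -5.60 ± 1.53 at an adjusted p of 0.0341, and the call was lost without Acta2GFP (0.116), C57BL6 (0.0756) or Cspg4dsRED (0.190). The log2 fold change ran from -6.77 without PdgfrbGFP to -4.70 without Cspg4dsRED. Ltbp3, a latent binder known from skeletal growth and airspace formation, had 56.3, 1.88, 23.4 and 30.9 in cluster 10 against 115.4, 79.1, 132.9 and 89.5 in the fibroblasts of the same order of lines. It was lower in all 4 lines without overlap, but its log2 fold change of -2.35 ± 0.87 had an adjusted p of 0.104. Its adjusted p was 0.0390 with DESeq2 on all 4 lines. In edgeR it was 0.0306 without C57BL6, which contributed 3 mural cells with 2 Ltbp3 reads.

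**Figure D2:**
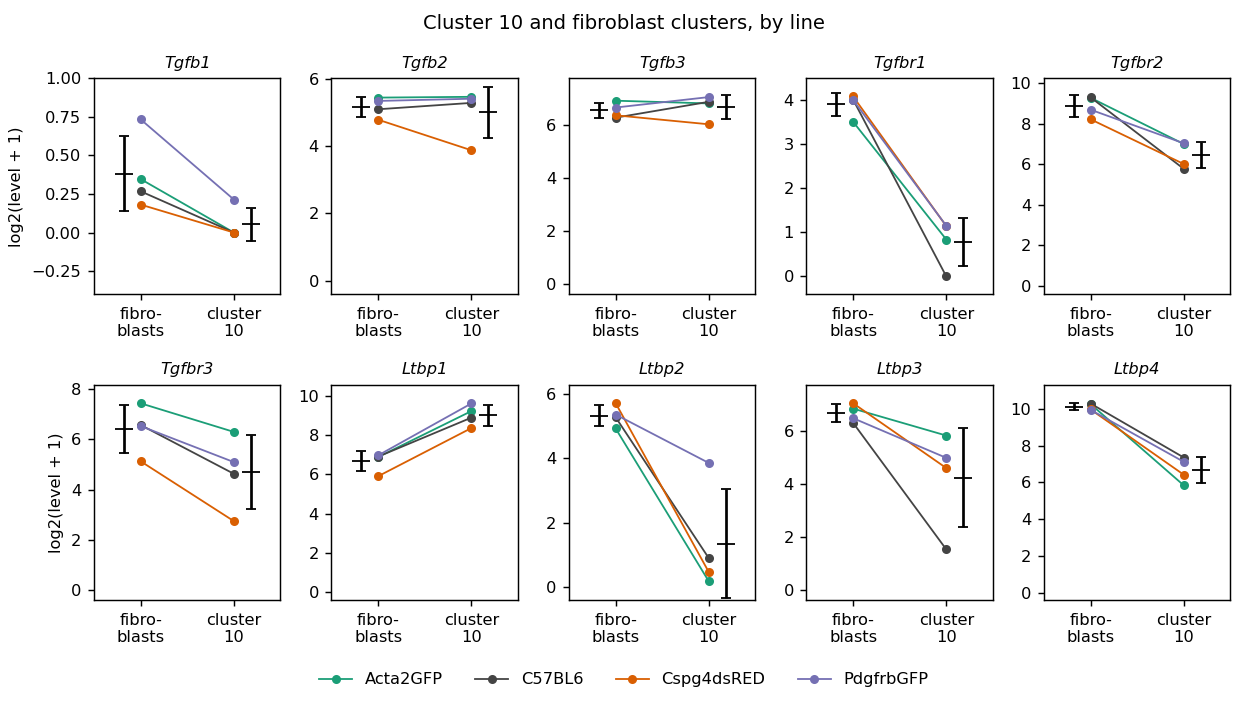
Level (log2 of reads per 500000 plus 1, vertical axis) of each gene in the fibroblast clusters and in cluster 10 for 4 lines (coloured points joined by line), with the mean and SD over lines in black. All 4 Ltbp1 lines rise from fibroblasts to cluster 10, from between 58.8 and 123.6 to between 325.1 and 775 reads per 500000, and all 4 Ltbp4 lines fall.

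As shares of the family per kilobase, Ltbp4 made up 87.6% ± 2.54 (SD, n = 5 lines) of latent binder levels in fibroblasts and 24.6% ± 10.1 (n = 4) in cluster 10. Ltbp1 made up 4.65% ± 1.37 and 70.4% ± 7.02. The lines did not overlap for either gene, since Ltbp1 shares ran from 3.04% to 6.49% in fibroblasts and from 63.3% to 78.8% in cluster 10. Ltbp3 differed far less as a share, with 5.67% ± 1.54 in fibroblasts and 4.54% ± 3.59 in cluster 10. In each fibroblast cluster the mean share of Ltbp4 lay between 82.2% and 94.3%. Ltbp4 thus led in all 10 fibroblast clusters, and Ltbp1 led in cluster 10.

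Among the receptors, Tgfbr2, which binds the ligand first, had 126.9 reads per 500000 in cluster 10 of Acta2GFP, 53.7 in C57BL6, 63.6 in Cspg4dsRED and 130.1 in PdgfrbGFP. The fibroblasts of those lines had 620.1, 630.4, 297.1 and 412.8, so the lines did not overlap. The log2 fold change was -2.54 ± 0.48 at an adjusted p of 0.00218. Tgfbr1, the signalling kinase, was close to the limit of detection in cluster 10, with 53 reads in all. Its levels were 0.784, 0, 1.20 and 1.21 in cluster 10, where the 3 cells of C57BL6 held no read, against 10.3, 15, 15.8 and 14.9 in the fibroblasts. The lines did not overlap, and the fitted log2 fold change of -3.86 ± 1.45 had an adjusted p of 0.110. DESeq2 gave an adjusted p of 0.00116 for the same sums. Tgfbr3, the co-receptor betaglycan, had 77.3, 23.7, 5.71 and 33.1 in cluster 10 and 171.2, 93.8, 33.9 and 91 in the fibroblasts. It was lower within each of the 4 lines, but the groups overlapped across lines, and its log2 fold change of -2.05 ± 0.78 had an adjusted p of 0.114. It passed with sums per plate and line (0.0485) and without C57BL6 (0.0473). By share of the family, Tgfbr2 led in both, at 71% ± 13.7 in cluster 10 and 79.4% ± 4.61 in fibroblasts.

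No ligand passed the test. Tgfb3 had 110.3, 115.2, 63.5 and 130.45 reads per 500000 in cluster 10 of Acta2GFP, C57BL6, Cspg4dsRED and PdgfrbGFP and 118.6, 75.7, 80.6 and 99 in the fibroblasts, with 2 lines higher and 2 lower. Its log2 fold change was -0.02 ± 0.64, at an adjusted p of 0.993, and it turned to 0.91 with the median gene at 0. Tgfb2 had 43.2, 38, 13.7 and 41.5 in cluster 10 and 42.5, 33.2, 26.6 and 39.6 in the fibroblasts. Its log2 fold change of -0.24 ± 0.91 had an adjusted p of 0.927, with standard errors of both ligands too wide to show that their levels are alike. Tgfb1 had 3 reads in cluster 10, all from PdgfrbGFP, and 520 in the fibroblasts of the 4 lines. It was lower in 4 of 4 lines, with a log2 fold change of -3.47 ± 1.57 and an adjusted p of 0.196. Tgfb3 made up 84.6% ± 3.11 of ligand levels per kilobase in cluster 10 and 81% ± 2.20 in fibroblasts, Tgfb2 made up 15.4% ± 3.11 and 18.8% ± 2.13, and Tgfb1 0.0173% and 0.201%.

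**Figure D3:**
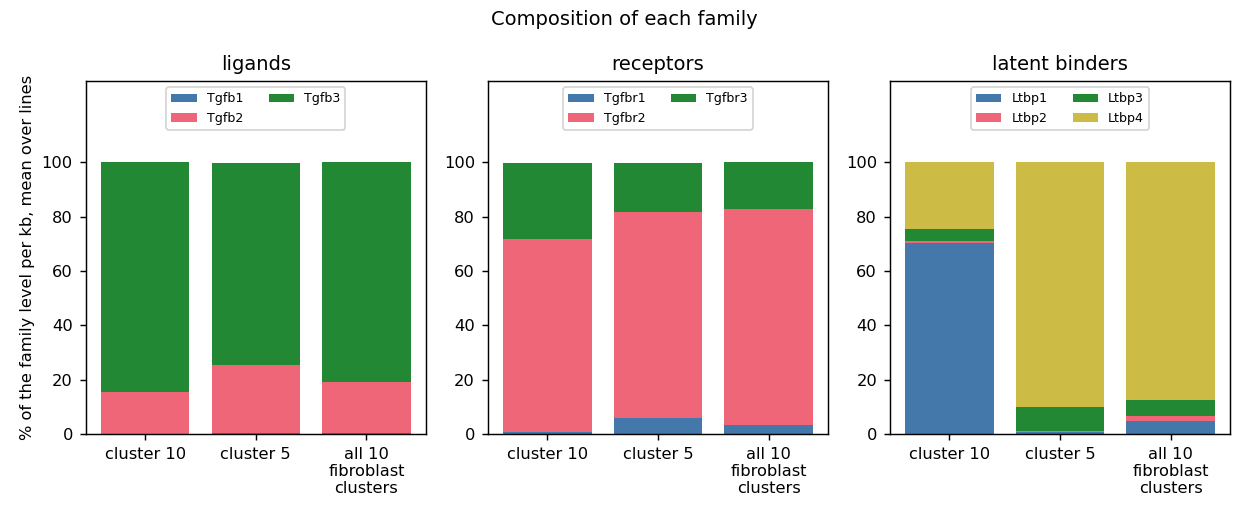
Share of each gene in the summed level per kilobase of its family (vertical axis, %, mean over lines) in cluster 10 (4 lines), cluster 5 (4 lines, 3 for the ligands) and all 10 fibroblast clusters (5 lines). Ltbp1 takes 70.4% of the latent binders in cluster 10 and 4.65% in the fibroblasts, whereas Tgfb3 takes 84.6% and 81% of the ligands.

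To compare how many cells held a read, every cell was thinned to 50000 reads, and the 6 cells with fewer were left out. Ltbp1 was read in 92% of cluster 10 cells (exact 95% interval 85.8 to 96.1) and in 64.8% of 1348 fibroblasts (62.2 to 67.4). Tgfbr1 was read in 7 cells of cluster 10 (5.60%, 2.28 to 11.2) and in 24.3% of fibroblasts (22 to 26.6). Ltbp4, which was read in 99.7% of fibroblasts (99.2 to 99.9), was still read in 72.8% of cluster 10 cells (64.1 to 80.4). Over all lines, Tgfb3 was read in 48% of cluster 10 cells (39 to 57.1) and in 61.1% of fibroblasts (58.5 to 63.7), and Tgfb2 in 29.6% (21.8 to 38.4) and 40.6% (37.9 to 43.3). Without thinning the shares were 92.8% and 80.9% for Ltbp1, 16% and 41% for Tgfbr1, 81.6% and 100% for Ltbp4, 55.2% and 77.4% for Tgfb3, and 40% and 59.7% for Tgfb2. The lines contribute unequally, since Cspg4dsRED gave 65 cells of cluster 10, so shares were also taken within the lines with the most cells of cluster 10. In Cspg4dsRED, thinned Tgfb3 shares were 29.2% in cluster 10 (18.6 to 41.8) and 41.5% in fibroblasts (33.1 to 50.3), and in PdgfrbGFP they were 75.6% (60.5 to 87.1) and 72.3% (69 to 75.5). Tgfb2 shares were 16.9% (8.76 to 28.3) and 20% (13.6 to 27.7) in Cspg4dsRED and 44.4% (29.6 to 60) and 49.5% (45.9 to 53.1) in PdgfrbGFP. Ltbp1 shares were higher in cluster 10 within both, at 89.2% (79.1 to 95.6) against 35.6% (27.5 to 44.2) and 97.8% (88.2 to 99.9) against 76.2% (73.1 to 79.2). Tgfbr1 shares were lower within both, at 6.15% (1.70 to 15) against 18.5% (12.4 to 26.1) and 4.44% (0.543 to 15.1) against 27.6% (24.4 to 30.9). Both signalling receptors were read in the same cell in 3.20% of cluster 10 cells (0.879 to 7.99) and 23.4% of fibroblasts (21.1 to 25.7). A ligand together with Tgfbr2 was read in 43.2% of cluster 10 cells (34.4 to 52.4) and 72.8% of fibroblasts (70.4 to 75.2), but in PdgfrbGFP in 75.6% (60.5 to 87.1) and 85.4% (82.7 to 87.9). Of the 1473 thinned cells, 2 had a ligand read and no latent binder read. No cell of cluster 10 had a Tgfb1 read after thinning, which allows a share of up to 2.40% at 3 counts of the total and 2.91% by the exact interval, and 3 cells had one without thinning (2.40%, 0.498 to 6.85). These intervals cover counting error only.

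Since each plate was sequenced as 1 pool, fibroblasts were also split by whether a cluster 10 cell shared their plate row or column. Ltbp1 was read in 62.3% of the 825 fibroblasts with such a neighbour (58.9 to 65.6) and in 68.8% of the 523 without (64.7 to 72.8). These groups differ in line make-up, since nearly all Cspg4dsRED fibroblasts had such a neighbour. Ltbp1 was read in 35.6% of Cspg4dsRED fibroblasts and 76.2% of PdgfrbGFP fibroblasts. An effect of neighbouring wells apart from line was not tested. Without the fibroblasts that had such a neighbour, 3 lines were left, with 8 fibroblasts in Cspg4dsRED. The log2 fold change of Ltbp2 was -5.53 at an adjusted p of 0.313. Ltbp1 was then at 3.05 (0.00800), Tgfbr2 at -2.63 (0.0152) and Ltbp4 at -3.26 (8.98e-09), each with its adjusted p. Fibroblast markers summed to 1339 in cluster 10 against 18291 in the fibroblast clusters other than 5, and the part of fibroblast RNA in the mural levels was not tested.

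The wider pathway was read from 60 genes in 5 lists, of which 58 were tested in cluster 10, with 3 higher, 18 lower and a median log2 fold change of -2.06, beside 2.27% higher, 4.11% lower and a median of -0.93 over all tested genes. Of the co-receptors and ligand traps, 6 of 10 were lower and none was higher. They were Fmod (-6.59 ± 1.11) and the small proteoglycans Dcn (-3.44 ± 0.49) and Bgn (-1.50 ± 0.20), which bind TGF-beta in the matrix, the type I receptor Acvrl1 (-4.33 ± 0.89), the protease Htra1 (-2.45 ± 0.62) and the endocytic receptor Lrp1 (-2.41 ± 0.40). Of the genes for ligand processing and release, 5 of 14 were lower and 1 was higher. Lower were the proprotein convertase Pcsk5 (-6.11 ± 1.11), the proteases Mmp2 (-5.84 ± 0.52), Bmp1 (-4.45 ± 0.97) and Mmp14 (-3.33 ± 0.59) and the plasminogen activator Plat (-4.11 ± 0.78). Thbs1, the thrombospondin that can release active TGF-beta, was higher (1.99 ± 0.53, adjusted p = 0.0286).

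The scaffold to which latent complexes attach was lower in 3 of 7 tested genes and higher in none. Fbln5, an elastic fibre protein, had a log2 fold change of -5.20 ± 0.53, fibronectin Fn1 -4.49 ± 0.70 and fibrillin Fbn1 -4.16 ± 0.60. Of 15 genes for SMAD signalling and its inhibitors, 1 passed, the SMAD antagonist Pmepa1 (-4.58 ± 1.23, adjusted p = 0.0307). Of 12 genes known to be induced by TGF-beta, 2 were higher and 3 lower. The higher were the contractile genes Tagln (6.45 ± 0.45) and Acta2 (5.69 ± 0.26), and the lower were Tgfbi (-6.28 ± 0.72), Timp1 (-5.80 ± 1.40) and collagen Col1a1 (-3.89 ± 0.27). With the median gene at 0, 17 of the 21 calls were kept and those of Timp1, Htra1, Bgn and Pmepa1 were lost. Acta2, Tagln, Col1a1 and Dcn are also markers of the cell types compared.

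The second comparison set cluster 5, the fibroblasts beneath the epithelium, against the other fibroblast clusters. In cluster 5 Ltbp2 fell by 5.44 on the log2 scale, while Ltbp1, Tgfb2 and Tgfb3 lay below the other fibroblasts in every line without passing the test. Within groups of cells from 1 plate and line, Ltbp1, Ltbp2, Ltbp4, Tgfb3 and Tgfbr2 were lower in 5 of 5. Tgfb1, Tgfb2, Tgfbr3 and Ltbp3 were lower in 4 of 5 and Tgfbr1 in 3 of 5. In this comparison these groups, and the sums per plate and line, hold 3 plates of PdgfrbGFP and no Cspg4dsRED cells. The comparison used 76 and 1161 cells from the 4 lines C57BL6, Cspg4dsRED, PdgfraGFP and PdgfrbGFP and 16145 genes. None of the 10 members was higher and 1 was lower, where 0.390% of all tested genes were higher and 0.545% lower. The median log2 fold change was -0.78 over the members and -0.77 over all tested genes, and relative to that shift Ltbp2 was at -4.67. Of all called genes 41.7% were higher in cluster 5, and 77.2% were with the median gene at 0. Cspg4dsRED contributed 3 cells of cluster 5. Fewer cells with a transcript and less of it per cell cannot be told apart in sums of this kind.

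Ltbp2 had 1.06 reads per 500000 in cluster 5 of C57BL6 and 1.16 in that of Cspg4dsRED, with 0.255 for PdgfraGFP and 1.60 for PdgfrbGFP. The other fibroblasts had 41, 52.8, 7.98 and 42, with PdgfraGFP lowest in both. The lines did not overlap, and the log2 fold change was -5.44 ± 1.09 at an adjusted p of 0.0419. The call was lost with the median gene at 0 (0.105) and without C57BL6 (0.180), PdgfraGFP (0.167) or PdgfrbGFP (0.273). Ltbp1 had 4.28, 0, 16.9 and 20.9 in cluster 5 against 128.2, 60.1, 108.01 and 128.6 in the other fibroblasts of those lines. It was read in 39.5% of cluster 5 cells after thinning (28.4 to 51.4) and 66.4% of the other fibroblasts (63.7 to 68.9). Its log2 fold change of -3.81 ± 1.02 missed the threshold at an adjusted p of 0.150, and it passed with DESeq2 (0.00288), with cells thinned before summing (0.00256), with no filter on low counts (0.0224) and with sums per plate and line (0.0407). Ltbp1 was therefore highest in cluster 10 and lowest in cluster 5 by cluster mean, at 540.5 ± 190.6 and 10.5 ± 9.96 (SD, n = 4 lines each).

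Ltbp4 was lower in cluster 5 within all 4 lines, at 837.4, 538.6, 1132 and 520 reads per 500000 against 1282, 1008, 1517 and 1004, with overlap across lines. The log2 fold change was -0.76 ± 0.17 at an adjusted p of 0.0840 and became 0.01 with the median gene at 0. It passed with no filter on low counts (0.00101), with sums per plate and line (0.0186), with thinned cells (0.0167), without C57BL6 (0.0272) and without PdgfraGFP (0.0285). With another line left out, its adjusted p in edgeR rose to as much as 0.343. Ltbp4 still made up 89.9% ± 3.98 of the latent binders per kilobase in cluster 5, followed by Ltbp3 at 9.16% ± 3.93. Ltbp3 itself showed no single direction, with 47.1, 108.7, 211.1 and 70.8 in cluster 5 against 81.9, 133.5, 89.3 and 90.4, and a log2 fold change of -0.09 ± 0.47.

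Tgfb3 had 28.4 reads per 500000 in cluster 5 of C57BL6, 0 in the 3 cells of Cspg4dsRED, 22.3 in PdgfraGFP and 54.3 in PdgfrbGFP. The other fibroblasts had 79.8, 82.4, 88.4 and 101.2, above every cluster 5 value. The log2 fold change of -2.03 ± 1.05 had an adjusted p of 0.467. Tgfb2 was alike in direction, at 17.7, 0, 15.9 and 22.4 against 34.5, 27.2, 40.3 and 40.5, with a log2 fold change of -1.93 ± 1.15 and an adjusted p of 0.572. Without Cspg4dsRED, whose 3 cells were at 0, the log2 fold change was -1.14 for Tgfb3 and -1.16 for Tgfb2, and it was -2.97 for Ltbp1. Of cluster 5 cells, 47.4% had no ligand read after thinning (35.8 to 59.2), against 22.9% of the other fibroblasts (20.6 to 25.3). Within lines the shares were 80% (51.9 to 95.7) and 37.8% (30.5 to 45.5) in C57BL6, 54.5% (32.2 to 75.6) and 37.6% (29.1 to 46.7) in PdgfraGFP and 25% (12.1 to 42.2) and 12.8% (10.5 to 15.5) in PdgfrbGFP, so that the intervals were apart in C57BL6 and overlapped in PdgfraGFP and PdgfrbGFP. Without thinning, 34 of the 36 cluster 5 cells of PdgfrbGFP had a Tgfb3 read.

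The receptors in cluster 5 did not pass the test. In cluster 5 of C57BL6, PdgfraGFP and PdgfrbGFP, Tgfbr2 had 312.4, 272.1 and 235.9, against 658.1, 737.6 and 421.5 in the other fibroblasts. The 3 cells of Cspg4dsRED, at 659.6, lay above the other fibroblasts of their line and went against the other 3 lines. Its log2 fold change was -0.67 ± 0.30 at an adjusted p of 0.357. Its adjusted p was 0.00494 with sums per plate and line, which leave out Cspg4dsRED, the line that went the other way. Tgfbr1 had 9.07, 1.39, 22.4 and 38.2 in cluster 5 and 15.5, 16.1, 26.9 and 13.7 in the others, higher in PdgfrbGFP alone. It was nevertheless read in more cells of cluster 5 than of the other fibroblasts, at 42.1% (30.9 to 54) and 23.2% (20.9 to 25.6) of thinned cells, and PdgfrbGFP provided 36 of the 76 cells. In PdgfrbGFP the shares were 63.9% (46.2 to 79.2) and 25.8% (22.6 to 29.1), while the intervals overlapped in the other 3 lines. Tgfbr3 was lower in 3 of 4 lines, with an adjusted p of 0.701.

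**Figure D4:**
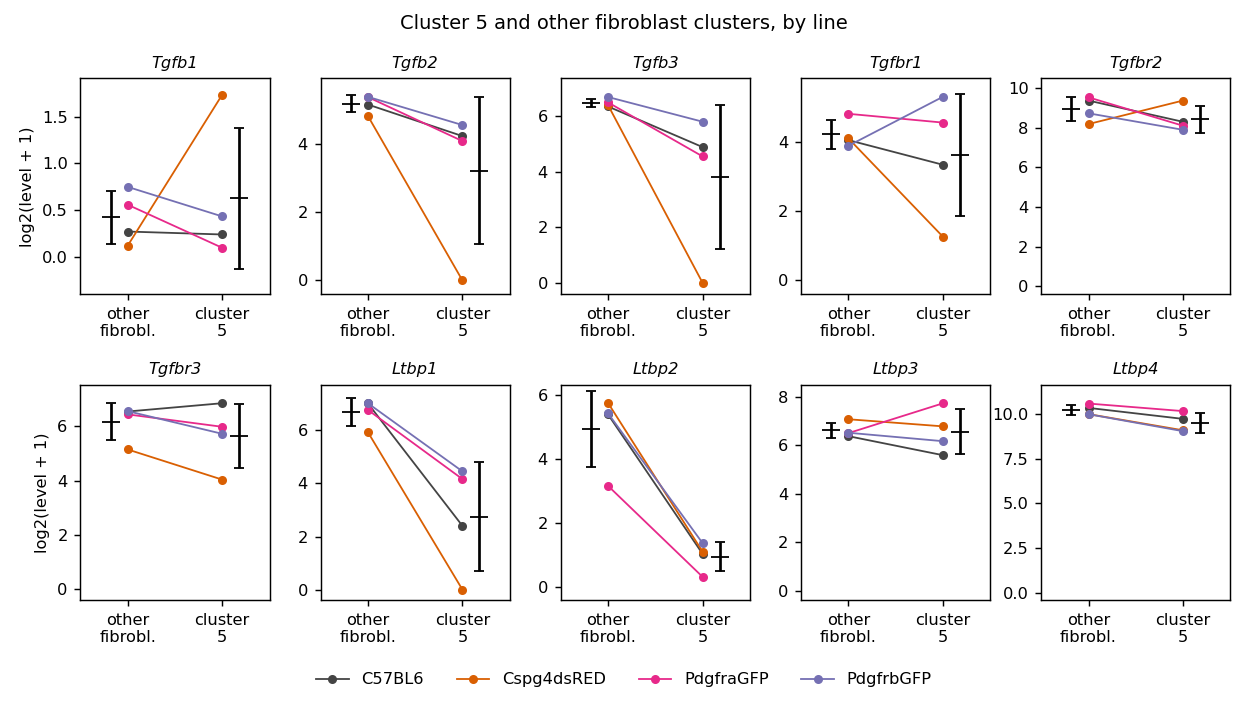
Level (log2 of reads per 500000 plus 1, vertical axis) of each gene in the fibroblast clusters other than 5 and in cluster 5 for 4 lines (coloured points joined by line), with the mean and SD over lines in black. Ltbp2 lies between 7.98 and 52.8 reads per 500000 in the other fibroblasts and between 0.255 and 1.60 in cluster 5, and the Cspg4dsRED points of cluster 5 come from 3 cells.

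Of the 58 tested pathway genes, 7 were higher and 2 lower in cluster 5, where 0.390% of all tested genes were higher and 0.545% lower. The scaffold was split, with Eln (-4.64 ± 0.81), which encodes elastin, and Fbn1 (-1.84 ± 0.30) lower and Fn1 (1.70 ± 0.27) higher. From the list of co-receptors and ligand traps, Htra1 (2.09 ± 0.20) and Fmod (1.86 ± 0.36) were higher. Also higher were the protease Mmp2 (1.01 ± 0.12) and the TGF-beta induced genes Acta2 (3.13 ± 0.44), Tgfbi (1.85 ± 0.30) and Col1a1 (1.02 ± 0.10). Of the 15 genes for SMAD signalling and its inhibitors, 0 passed in edgeR, 0 passed in DESeq2 and 0 had an unadjusted p under 0.05. With the median gene at 0 the call of Fbn1 was lost. Mural markers summed to between 435 and 753 in the lines of cluster 5, against 64.5 to 169.6 in the other fibroblast clusters, and epithelial markers to between 0 and 82.1, against 0.725 to 18. Their part in these values was not tested. Fn1, Fmod, Htra1, Mmp2, Tgfbi and Col1a1 were thus higher in cluster 5 relative to other fibroblasts and lower in cluster 10 relative to fibroblasts, 2 comparisons that share fibroblasts.

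The third comparison asked whether the members differ among the 10 fibroblast clusters. With 39 sums per line and cluster and an F test over all cluster terms in edgeR, 0 of the 10 members passed, where 6.01% of 15237 genes did. At an unadjusted p under 0.05 there were 4 members, Ltbp2, Tgfb1, Tgfbr2 and Ltbp1, where 19.5% of all tested genes reached it. The closest to the threshold was Ltbp2 at an adjusted p of 0.0589, followed by Tgfb1 at 0.0747. DESeq2 called Ltbp2 (0.00349) and Tgfbr3 (0.0182), and sums per plate and line gave 4 called members, Ltbp1, Ltbp2, Ltbp4 and Tgfbr2. Of the pathway lists, 15 of 57 genes passed, among them the thrombospondin Thbs1 (adjusted p = 0.000696), Fn1 (8.05e-06), Eln (0.00761), Dcn (0.000742), Fmod (0.00349), Htra1 (0.0144), Mmp2 (0.00639), Itgb3 (0.00817), a subunit of a TGF-beta releasing integrin, and the induced genes Col1a1 (8.05e-06), Tgfbi (0.000500), Ccn2 (0.00762) and Postn (0.00828).

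By the ratio of the highest to the lowest cluster mean, Ltbp2 showed the widest range among fibroblasts. Tgfb1, whose lowest mean was 0, was left out of this order. Ltbp2 ran from 57.8 ± 43.8 (SD, n = 5 lines) reads per 500000 in cluster 6 to 0.506 ± 0.306 (n = 2) in cluster 4. Clusters 6, 8, 9, 3 and 2 had means between 28.7 and 57.8, and clusters 7, 11, 1, 5 and 4 between 0.506 and 7.36. The mean of cluster 2 rests on 1 cell of Cspg4dsRED, which put that line at 118.1, while the other 4 lines had 0 to 18.6. Within cluster 6 the lines ran from 0 to 105.5, so that no neighbouring pair of clusters in this order differed by more than the larger SD. Ltbp1 ran from 266.8 ± 292.2 (n = 2) in cluster 9 to 10.5 in cluster 5, but the lines of cluster 9 were at 60.2 (85 cells of Cspg4dsRED) and 473.4 (3 cells of C57BL6, 2 of them with a read). Ltbp4 varied least, 1.90-fold between 1441 ± 347.8 in cluster 1 and 757.1 ± 289.2 in cluster 5. The gap from cluster 5 to the 110.2 ± 48.5 of cluster 10 was the only step in its order of clusters that exceeded the SD.

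For the receptors, Tgfbr2 ran from 853.9 ± 249.96 (SD, n = 4 lines) in cluster 3 to 148.9 ± 70.3 (n = 2) in cluster 4, Tgfbr1 from 31.4 ± 29 (n = 5) in cluster 8 to 2.55 ± 2.66 in cluster 4, and Tgfbr3 was highest in cluster 11, where its 3 lines ran from 129.1 to 195.2, and lowest in cluster 4 at 26.1 ± 29.8. Cluster 10 lay below all fibroblast clusters for Tgfbr1 and Tgfbr2. Tgfb2 was highest in cluster 8 at 62.2 ± 12 (n = 5), where every line had 51.1 or more. Tgfb3 lay between 82.4 and 110.5 in 9 clusters, cluster 10 included, and at 26.2 ± 22.3 in cluster 5 and 24.8 ± 29.6 in cluster 4. The step from cluster 2 to cluster 5 exceeded the larger SD, and it was the only one of its 10 steps to do so. Cluster 4, which had the lowest mean of Tgfb1, Tgfb2, Tgfb3, all 3 receptors, Ltbp2 and Ltbp3 among fibroblasts, rests on 21 cells in these means, 17 of Cspg4dsRED and 4 of PdgfrbGFP, and its 23 cells had a median of 2405 detected genes.

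Levels were then compared between the lines over clusters 2, 6, 7 and 8, the fibroblast clusters with at least 3 cells in every line, each given equal weight. No test was made, as each line is 1 group of cells and coincides with its sort and in part with its plate. Tgfbr3 had 144.04 reads per 500000 in Acta2GFP, 100.4 in C57BL6, 91.9 in PdgfrbGFP, 90 in PdgfraGFP and 18.7 in Cspg4dsRED, a 7.70-fold range, while the 3 plates of PdgfrbGFP differed by 1.60-fold. The Cspg4dsRED value rests on 32 cells, 3 of them in cluster 6 and 4 in cluster 2, and over all fibroblast clusters Tgfbr3 had 40 in that line and 74.9 to 174.4 in the others. Ltbp2 had 56.4 in Acta2GFP, 41.4 in C57BL6, 38.9 in PdgfrbGFP, 34.1 in Cspg4dsRED and 6.52 in PdgfraGFP, an 8.65-fold range, with 1.56-fold between plates. The Acta2GFP value rests on 29 cells. That of Cspg4dsRED rests mainly on 1 cell with 81 reads among its 4 cells of cluster 2, with 0 in clusters 6 and 7 and 18.4 in cluster 8, so the order of the lines was not resolved. Over all fibroblast clusters Ltbp2 had 29.8 in Acta2GFP and 51.8 in Cspg4dsRED, so that their order turned, with PdgfraGFP again lowest at 9.99. Over all fibroblast clusters the lowest line thus differed between the 2 genes, and 26 of the Cspg4dsRED cells shared a plate with PdgfraGFP.

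Ltbp4 had the narrowest range between lines, 1.58-fold, from 959.7 in PdgfrbGFP to 1516 in PdgfraGFP, with 1.08-fold between plates. Tgfbr2 had 2.03-fold, from 316.05 in Cspg4dsRED to 641.4 in PdgfraGFP. Ltbp1 (1.78-fold) and Tgfbr1 (2.56-fold) differed less between lines than between the PdgfrbGFP plates, which differed by 2.14-fold and 4.81-fold. Tgfb2 was lowest in Cspg4dsRED, at 17.3 against 41.8 to 53.8 in the other lines, and Tgfb3 was highest in Acta2GFP, at 156.9 against 70 to 92.8. The PdgfrbGFP plates ran from 55.2 to 117.4 for Tgfb3, a 2.13-fold range against 2.24-fold between lines. On the plate that Acta2GFP and PdgfrbGFP share, the Acta2GFP level of Tgfb3 was the higher in each of the 6 clusters compared, from 75.8 against 70.1 in cluster 11 to 160.2 against 74.8 in cluster 7. Intervals for counting error were apart in clusters 3, 6, 7 and 8. They overlapped in clusters 1 and 11, where PdgfrbGFP had 8 and 4 cells. With the 6 clusters summed they overlapped too, at 127.06 to 134.43 in Acta2GFP and 123.40 to 130.67 in PdgfrbGFP. In that sum, cluster 11 gave 43 Acta2GFP cells and 4 PdgfrbGFP cells. Detected genes per cell also differed between lines, with medians from 2846 in Cspg4dsRED to 6898 in PdgfrbGFP, and their part in these ranges was not tested.

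**Figure D5:**
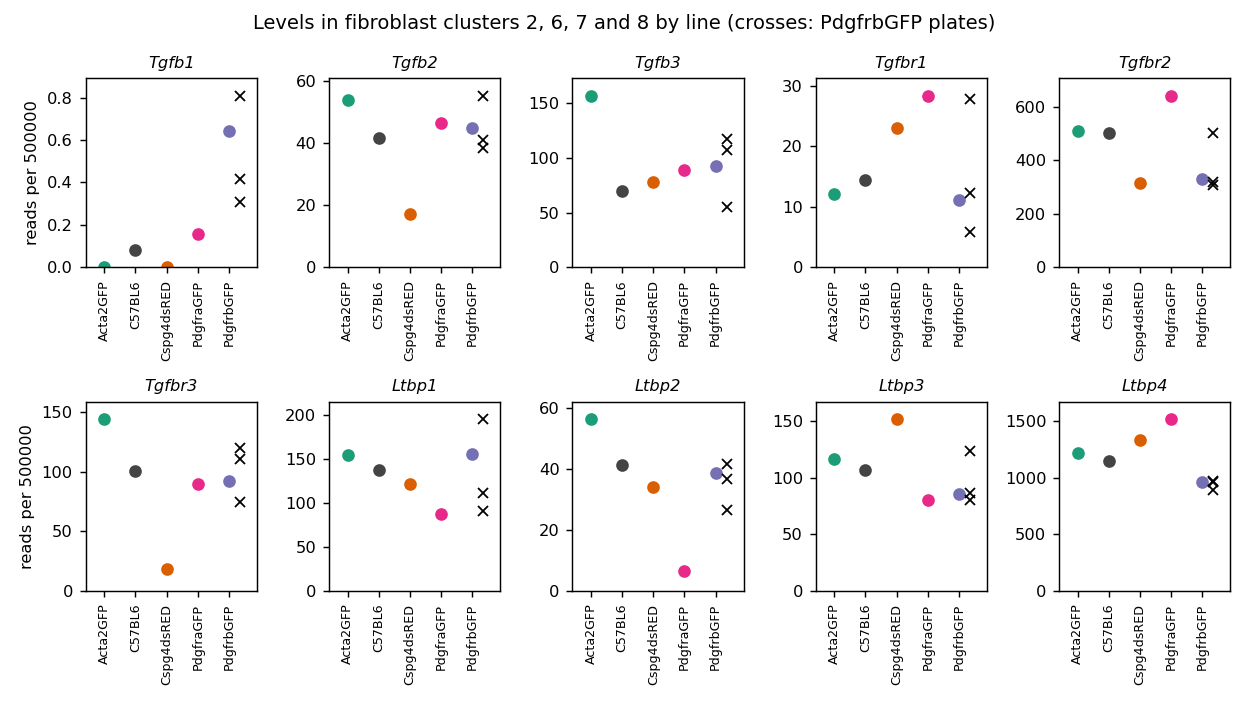
Level (reads per 500000, vertical axis from 0) of each gene in fibroblast clusters 2, 6, 7 and 8 with equal weight, by mouse line (coloured points), with the 3 PdgfrbGFP plates as crosses (1 of them over 3 clusters). Cspg4dsRED lies lowest for Tgfbr3 at 18.7 and PdgfraGFP lowest for Ltbp2 at 6.52.

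The genes most like each member were ranked by Pearson correlation over 43 sums of a line and cluster among 15807 genes. The sums share lines and plates and differ in depth, so the correlations are descriptions. Ltbp4 had the closest neighbours, Selenop (0.95), a selenium carrier, Rnase4 (0.93), a secreted ribonuclease, and Adamts2 (0.91), a procollagen protease. Tgfbr2 was closest to Loxl1 (0.80) and Mfap4 (0.77), which take part in elastic fibre assembly, and Man1a (0.76). Ltbp1 was closest to Fosb (0.77), an immediate early transcription factor, Sparcl1 (0.73), a matricellular protein, and Tns1 (0.71), an adhesion protein that was also second for Tgfb3 (0.83). The other members' closest genes were Hook2 for Tgfb1 (0.70), Aqr for Tgfb2 (0.83), Sptan1 for Tgfb3 (0.83), Abhd8 for Tgfbr1 (0.79) and Ube2d3 for Tgfbr3 (0.85). Between members the highest correlations were Tgfbr2 with Ltbp4 (0.68) and Tgfb3 with Ltbp1 (0.62).

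The closest gene of Ltbp2 overlaps it, as D030025P21Rik (0.79) lies opposite Ltbp2 with 764 shared exon bases. No strand setting is given for the counting, so reads in this stretch cannot be told apart. Shorter overlaps with predicted genes touch Tgfb2, Tgfb3 and, on the same strand, Tgfbr3.

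Tgfb1 is known as the ligand of immune and blood cells. Of the 86 cells with a Tgfb1 read, 30 (34.9%) also had a read of at least 1 of 5 immune markers, against 568 of 1393 cells (40.8%) without one. Cells with a clear immune signature had been removed by the authors, so these shares cannot tell whether immune cells carried Tgfb1. The cells with a Tgfb1 read were deeper, with a median of 324483 endogenous reads against 204365. After thinning, 33 of 1473 cells had a Tgfb1 read (2.24%, 1.55 to 3.13), 12 of them in cluster 3.

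The members lie on 8 chromosomes of GRCm38, with Tgfb1 (7:25687002-25705077) and Ltbp4 (7:27305136-27337692) on chromosome 7 and Ltbp2 (12:84783212-84876532) and Tgfb3 (12:86056745-86079041) on chromosome 12. Tgfb2 lies at 1:186622792-186705989, Tgfbr1 at 4:47353222-47414931, Tgfbr2 at 9:116084293-116175360, Tgfbr3 at 5:107106570-107289629, Ltbp1 at 17:75005568-75392512 and Ltbp3 at 19:5740904-5758532. Exon lengths, taken from GENCODE, ran from 3383 bases in Tgfb3 to 10691 in Ltbp1.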

How the data were processed

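Single cells of mouse bladder were sorted into 384-well plates and made into Smart-seq2 libraries, each plate being sequenced in 1 lane. The deposited values were raw read counts per gene and cell. Cells that expressed neither Pdgfra nor Pdgfrb had been removed by the authors, as had cells with clear endothelial or immune signatures. The authors trimmed reads with trim galore, aligned them to GRCm38 (mm10) with TopHat2 and counted them with featureCounts; the annotation release and the strand setting are not given in the sources used here. Cluster and line came from the labels, which name no animal, so lines served as replicates. With line as a block, p-values weigh a difference between classes against how it varied over lines. They do not measure the spread between animals.

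Spike-in rows were left out of all totals. Levels were reads per 500000 endogenous reads, averaged over cells and then over lines; thinned values used 50000 reads per cell. Counts were summed over cells per line and class (at least 3 cells) and tested with edgeR 4.0.16 in R 4.3.3 (quasi-likelihood test, TMM, filterByExpr, line as a block), with Benjamini-Hochberg adjustment over all genes and a threshold of 0.05. The SE of a log2 fold change was derived as its absolute value divided by the square root of the F statistic of the test. Intervals are exact binomial 95% intervals. DESeq2 1.42.0 and the other settings described in the closing section were alternatives. Scripts were tested on simulated data. Of the pathway genes, all that passed were eligible for naming, up to 6 per list with the largest change. Promoters were matched by symbol to RefSeq, and exon lengths and gene positions came from GENCODE. The members and gene lists were chosen with earlier results of these data known. The gene closest in pattern to Ltbp3 is not reported here.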

Additional observations from a re-analysis of the deposited data

Results flagged for a closer look

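Among 40 groups of 4 lines, 7 held a line that stood apart from the other 3 by Dixon's test, where chance flags about 1 in 20 groups. In cluster 10, PdgfrbGFP stood apart for Ltbp2, at 13.5 reads per 500000 against 0.138 to 0.873, and for Tgfb1, at 0.160 against 0 in the other 3 lines. In the fibroblast clusters, Ltbp1 was low in Cspg4dsRED, at 58.8 against 116.6 to 123.6, and Tgfbr1 was low in Acta2GFP, at 10.3 against 14.9 to 15.8. In the fibroblast clusters other than 5, Cspg4dsRED was low for Tgfbr3, at 34.4 against 85.5 to 92.9, and high for Ltbp3, at 133.5 against 81.9 to 90.4. In cluster 5, Cspg4dsRED was high for Tgfb1, at 2.33 against 0.0689 to 0.349, which rests on 2 reads in 3 cells.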

How the results depend on the processing

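In cluster 10, 6.38% of tested genes were called with the settings reported, 18.7% with DESeq2, 17.2% with sums per plate and line, 2.24% without fibroblasts that had a cluster 10 cell in their plate row or column, and 3.02% (without Cspg4dsRED) to 6.80% (without C57BL6) when 1 line was left out. The 4 called members became 2 with the median gene at 0, 6 with DESeq2, 6 with plate sums and 3 to 5 when 1 line was left out. In cluster 5, 0.935% were called, 8.83% with DESeq2, 3.82% with sums per plate and line, 2.51% with thinned cells, and 0.758% to 1.51% when 1 line was left out. The plate sums of that comparison held no Cspg4dsRED cells. The 1 called member became 0 with the median gene at 0, 2 with DESeq2, 3 without a filter on low counts, 4 with plate sums, 3 with thinned cells and 0 to 1 when 1 line was left out, where the call was Ltbp4 and not Ltbp2 without C57BL6 or PdgfraGFP. Among fibroblast clusters, 6.01% were called, 10.0% with plate sums and 1.12% (without PdgfrbGFP) to 4.79% when 1 line was left out. The 0 called members became 1 with the median gene at 0, 2 with DESeq2, 1 without a filter, 4 with plate sums, 3 with thinned cells and 0 to 1 when 1 line was left out. The causes were not tested.

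Without the line as a replicate block, 11.0% of genes were called in cluster 10, 2.60% in cluster 5 and 12.2% among fibroblast clusters. In cluster 10, Ltbp2 then had a log2 fold change of -3.64 at an adjusted p of 0.0535 and Tgfbr1 of 0.0388 in edgeR, Tgfb3 turned to 0.09, and in cluster 5 Ltbp3 turned to 0.13.

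The direction changed in members that had not passed the test. In cluster 10, Tgfb2 turned to a log2 fold change of 0.07 with median-of-ratios scaling, 0.69 with the median gene at 0 and 0.06 with DESeq2, and Tgfb3 to 0.28, 0.91 and 0.28, with -0.22 to 0.18 when 1 line was left out. In cluster 5, Ltbp3 turned to 0.06, 0.68 and 0.06, while with the median gene at 0 Tgfb1 turned to 0.26, Tgfbr1 to 0.15, Tgfbr2 to 0.10 and Ltbp4 to 0.01. Tgfbr1 was at 0.13 with plate sums. With 1 line left out, Ltbp3 ran from -0.40 to 0.09, Tgfb1 from -1.55 to 0.25 and Tgfbr1 from -1.29 to 0.11.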
